A study of Mus musculus with 8 samples.

Results

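Endothelial cells line blood vessels, and 10 genes that are widely used to recognise or describe them were followed here in tissue of the mouse optic fissure: Pecam1, Cdh5, Kdr, Flt1, Tek, Tie1, Emcn, Esam, Egfl7 and Cldn5. They were taken by name, as 10 of the 18193 genes that the array names, and every probe set of the array annotated to one of them alone was included, 17 of the 45037 non-control probe sets. The fissure, a ventral groove of the optic cup, had been isolated by laser capture microdissection from sections of untreated wild-type embryos, with the strain given as C57BL/6 and also as C57BL6/J. The stages were embryonic days E10.5 (3 arrays, A to C), E11.5 (3 arrays, A to C) and E12.5 (2 arrays, A and B), and the RNA of 3 embryos was pooled for each array. The labels call the arrays biological replicates, but they say in one place that the embryos of a pool shared a litter and in another that they came from separate litters. The p-values measure the spread between these pools of 3 embryos, and how far that covers the spread between litters is not known.

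Vascular endothelial growth factor (VEGF) and the angiopoietins are secreted signals that endothelial cells read through receptor tyrosine kinases, Kdr and Flt1 for VEGF and Tek for the angiopoietins. Neighbouring endothelial cells are joined by vascular cadherin and tight junction proteins, which make the vessel wall a barrier. In the developing eye, vessel precursors and mesenchyme enter the cup through the open fissure and form the hyaloid vessels. These vessels run behind the lens, and the fissure closes around their stalk. Kdr is also known to be expressed by retinal progenitor cells, which makes it a less specific vessel marker in the eye than elsewhere.

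The 8 array medians lay between 4.37 and 4.48 on the log2 scale, while the 99th percentile ran from 11.2 on E11.5 A to 12.9 on E10.5 A. E11.5 A and E10.5 C stood apart from their replicates on the leading principal components. For Gapdh, the difference between the 3 prime and 5 prime control signals, which grows as amplified RNA is shortened, ranged from 4.19 to 4.71 at E10.5, from 3.35 to 4.63 at E11.5 and from 4.78 to 5.17 at E12.5, so the E12.5 arrays were higher than all others. For beta-actin it ranged from 6.83 to 6.96 at E10.5 and from 5.45 to 6.61 at E11.5. On the E12.5 arrays it was 6.88 and 7.21, so for beta-actin E10.5 and E12.5 overlapped. Markers of the labelled tissue were measured well: of 13 genes listed for the optic fissure and optic cup, 11 were named by a probe set and all 11 passed the filter on low signal. Among them, Vax2, a homeodomain factor of the ventral retina, read 8.86 ± 0.51 (SD, n = 3), 8.95 ± 0.68 (SD, n = 3) and 9.84 ± 0.32 (SD, n = 2) at E10.5, E11.5 and E12.5. Members of this list differed in direction. Between E10.5 and E12.5 the mean of Vax1 went from 8.88 to 7.88 and that of Ntn1 from 8.37 to 4.33, near the filter limit. The list's median change over these stages was -0.12.

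The 10 genes spread over the lower and middle signal range, and 4 of them, Pecam1, Cdh5, Tie1 and Emcn, had no probe set above the filter on low signal. The filter left out probe sets whose mean log2 signal over the 8 arrays was below 3.94, the lowest 40%, and 6 of the 17 endothelial probe sets were left out. The share kept was 64.7%, beside 60% of all probe sets, so as a group the endothelial probe sets were not left out more often than others. Those left out were all probe sets of Pecam1, Cdh5, Tie1 and Emcn, and 1 of 4 for Flt1. Tested were the remaining 11 probe sets, of Kdr, Flt1, Tek, Esam, Egfl7 and Cldn5. The mean log2 signal was 3.73 for the second Cdh5 probe set, just outside the limit, and 4.13 for Tek, just inside it. The 4 untested genes include the common defining markers Pecam1 and Cdh5, so these arrays give no test of them, and each gene is described under its own name. In bulk tissue, fewer cells of a type and less RNA per cell cannot be told apart, and a signal near the lower limit cannot be told from none.

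**Figure D1:**
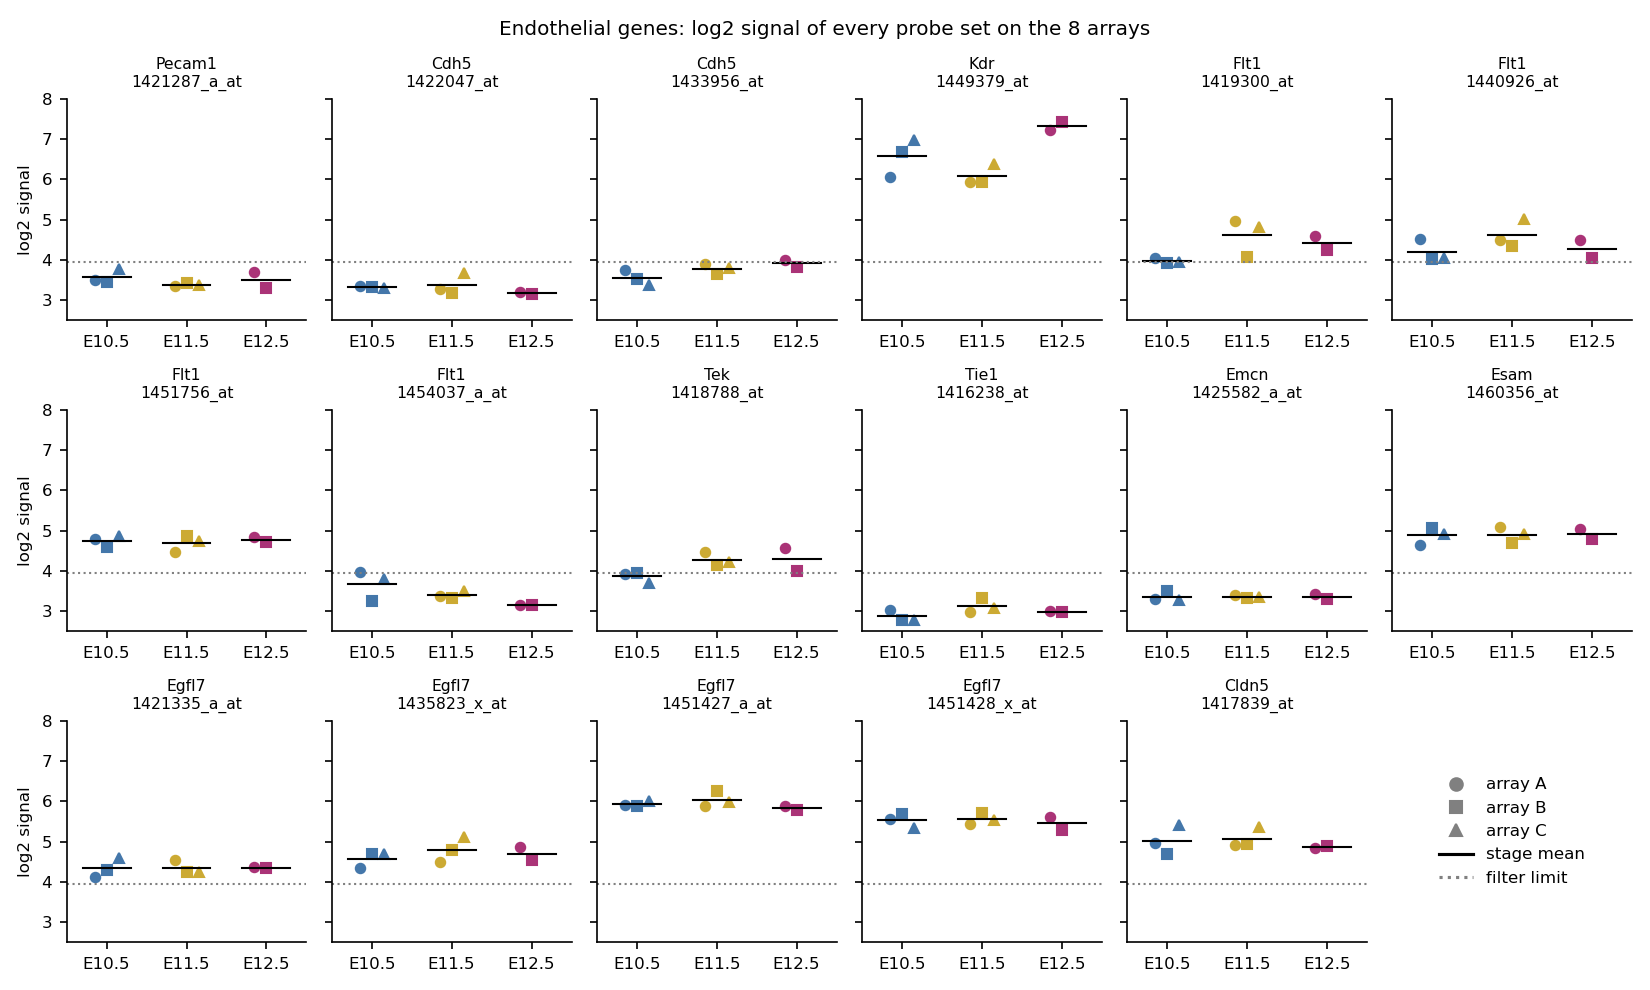
Each panel shows 1 probe set, with log2 signal on the vertical axis and stage on the horizontal axis. Points are single arrays (circle A, square B, triangle C), bars are stage means, and the dotted line is the filter limit of 3.94. Kdr read between 5.93 and 7.43 with both E12.5 arrays on top, while the probe sets of Pecam1, Cdh5, Tie1 and Emcn had mean signals below the line.

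No endothelial probe set passed the test in any of the 3 comparisons. Between E10.5 and E11.5, limma called 0 of 11 at an adjusted p below 0.05, where it called 0.126% of all 27022 tested probe sets. Between E11.5 and E12.5 it called 0 of 11, against 1.82% of all, and between E10.5 and E12.5 again 0 of 11, against 4.64% of all. At an unadjusted p below 0.05 there were 2, 1 and 1 of the 11, against 19.4%, 16.7% and 22.2% of all. The 2 of the earliest comparison were 1419300_at of Flt1 and the probe set of Tek. Nothing is read from that count, since Tek passed the filter only through the later stages. The median log2 changes of the 11 were 0.06, -0.10 and 0.03, beside -0.18, 0.10 and -0.08 over all tested probe sets. Quantile normalization moved the median of all probe sets from -0.18 to -0.02 in the earliest comparison. With no filter, 0 of 17 probe sets were called in each comparison, with 3, 1 and 3 at an unadjusted p below 0.05. Of all 45037 probe sets, 6853 were below it between E10.5 and E11.5 and 5705 between E11.5 and E12.5. For E10.5 to E12.5 only the 22.2% of the filtered probe sets stands beside the 3. No conclusion is drawn from these counts.

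The VEGF receptors came first in size of change. Kdr, also called VEGF receptor 2, the main signalling receptor for VEGF in endothelium, read 6.07, 6.68 and 6.98 on the E10.5 arrays A to C. On the E11.5 arrays it read 5.93, 5.93 and 6.38, and on the E12.5 arrays 7.23 and 7.43. Both E12.5 arrays were thus above all 6 earlier ones, while the arrays of E10.5 and E11.5 overlapped. The stage means were 6.57 ± 0.46 (SD, n = 3), 6.08 ± 0.26 (SD, n = 3) and 7.33 ± 0.14 (SD, n = 2).

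From E11.5 to E12.5 the difference in Kdr was 1.26 (SE 0.30, 95% confidence interval 0.61 to 1.91), a 2.39-fold higher mean, with an adjusted p of 0.0604 in limma. It did not pass over all probe sets, though its own interval did not reach 0. Relative to the median of all probe sets it was 1.16, and 1.11 after quantile normalization. The adjusted p fell below the threshold in 4 of 18 alternatives: 0.0319 with the arrays of these stages alone, 0.0364 without E10.5 A, 0.0244 without E10.5 C and 0.045 without E11.5 C. It was as high as 0.71 without E12.5 B. The summed log2 level of the 11 optic cup markers ranged from 12.6 to 13.8 at E11.5 and from 13.9 to 14.2 at E12.5, and the Gapdh measure of RNA quality was higher at E12.5 too. Their part in the Kdr values was not tested.

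From E10.5 to E12.5 Kdr differed by 0.76 (SE 0.30, interval 0.11 to 1.41, adjusted p = 0.165), and from E10.5 to E11.5 by -0.50 (SE 0.27, interval -1.08 to 0.08, adjusted p = 0.321). Neither passed. Without E10.5 C and E11.5 A, the arrays that stood apart, the latter was -0.22, an alternative added after seeing the data.

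Flt1, VEGF receptor 1, which binds VEGF tightly and also exists in a soluble form that holds the ligand back, was measured by 4 probe sets, of which 1419300_at and 1440926_at followed each other (Pearson correlation 0.70 over 8 arrays) and the other pairs did so less, at -0.45 to 0.26. Probe set 1419300_at read 4.04, 3.94 and 3.96 at E10.5, then 4.96, 4.07 and 4.83 at E11.5, and 4.59 and 4.25 at E12.5. Its later arrays all lay above the E10.5 arrays. The change to E11.5 was 0.64 (SE 0.22, interval 0.15 to 1.12), with an adjusted p of 0.18 in limma. Probe set 1440926_at changed by 0.42 (SE 0.22) over the same interval, with overlapping arrays. Probe set 1451756_at, read between 4.47 and 4.86 on all arrays, changed by -0.06 (SE 0.17). The untested 1454037_a_at was lower at E12.5 than at E10.5, by 0.52 in the fit without a filter, with values of 3.97, 3.26 and 3.81 at E10.5 against 3.16 and 3.17. The correlations are a description of probe sets that share their arrays.

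The promoters of both VEGF receptor genes are shown because Kdr had the largest change among the tested endothelial genes and Flt1 reads the same ligand. Of the 10 genes, 7 had an entry in the RefSeq promoter table (build GRCm38.p6): Kdr, Flt1, Tek, Tie1, Emcn, Egfl7 and Cldn5. The windows hold the 250 bases before the start site, at chr5:75978456-75978705 for Kdr and chr5:147726012-147726261 for Flt1, both on the minus strand. They are written 5′ to 3′ on the strand of the gene, with capitals on each GGAA or its reverse complement TTCC, the core recognised by ETS factors, a family with central members in endothelium.
Kdr: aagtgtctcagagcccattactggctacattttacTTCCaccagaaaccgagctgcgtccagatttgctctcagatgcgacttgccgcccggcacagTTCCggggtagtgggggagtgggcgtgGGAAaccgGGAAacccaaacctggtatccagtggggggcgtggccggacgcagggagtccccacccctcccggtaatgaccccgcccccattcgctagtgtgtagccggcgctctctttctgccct
Flt1: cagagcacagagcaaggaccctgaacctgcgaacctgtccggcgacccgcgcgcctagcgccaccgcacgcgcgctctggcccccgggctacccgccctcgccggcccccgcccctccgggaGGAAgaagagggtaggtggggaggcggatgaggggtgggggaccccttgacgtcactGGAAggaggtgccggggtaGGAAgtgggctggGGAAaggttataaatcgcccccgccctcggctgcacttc
Each window held 4 matches to the ETS core, counted on both strands with overlaps between motifs allowed. At least 1 match stood in 93.4% of the 32851 promoter windows of the same length, and at least 4 in 33.4%. The GC box GGGCGG, a site for Sp factors, matched 2 times in Kdr and 3 times in Flt1, and 32.7% of all windows held one. The letters TATAAA of a TATA box stood once in the Flt1 window and not in that of Kdr, against 12.4% of all windows. These matches describe the letters and were not tied to the signals.

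The angiopoietin receptors were weak. Tek, the receptor that angiopoietin 1 activates to stabilise vessels, read 3.94, 3.95 and 3.71 at E10.5, then 4.46, 4.16 and 4.22 at E11.5, and 4.57 and 4.0 at E12.5. All later arrays were above the E10.5 arrays, and E11.5 and E12.5 overlapped. The E10.5 mean, 3.86, was below the filter limit, so Tek was tested only because of its later arrays, and its difference from E10.5 is given as a description. The change to E11.5 was 0.42 (SE 0.18, interval 0.03 to 0.81, adjusted p = 0.237), and that from E10.5 to E12.5 was 0.42 (SE 0.20, interval -0.02 to 0.86, adjusted p = 0.241). Tie1, the orphan receptor that pairs with Tek, stayed between 2.79 and 3.33 on all 8 arrays and was not tested.

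Genes of endothelial junctions and the cell surface gave no call. Cdh5, vascular cadherin, the adhesion molecule of endothelial junctions, lay between 3.15 and 3.67 on 1 probe set and between 3.37 and 4.01 on the other. On the latter both E12.5 arrays, at 4.01 and 3.83, were above the 3 E10.5 arrays at 3.74, 3.54 and 3.37, and on the former both were below them, so the probe sets disagreed in direction. Pecam1, the adhesion molecule CD31, lay between 3.30 and 3.78. Emcn, the sialomucin endomucin of venous and capillary endothelium, kept the narrowest range of the 17, from 3.28 to 3.50.

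Esam, an immunoglobulin-type adhesion molecule of endothelial tight junctions, read 4.65, 5.07 and 4.93 at E10.5, 5.10, 4.69 and 4.92 at E11.5, and 5.04 and 4.78 at E12.5. The arrays of all stages overlapped, and the change from E10.5 to E12.5 was 0.03 (SE 0.21, interval -0.44 to 0.50). Cldn5, the claudin that seals endothelial tight junctions, read 4.97, 4.69 and 5.41 at E10.5, 4.93, 4.94 and 5.37 at E11.5, and 4.86 and 4.90 at E12.5. Its E12.5 arrays lay just below the E11.5 arrays, with a change of -0.20 (SE 0.25, interval -0.74 to 0.33, adjusted p = 0.731).

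Egfl7, a secreted protein that endothelial cells deposit in the vessel matrix, had 4 probe sets, all above the limit. Probe set 1451427_a_at read 5.92, 5.88 and 6.00 at E10.5, 5.88, 6.26 and 5.98 at E11.5, and 5.90 and 5.79 at E12.5, with overlapping stages. Its changes were 0.10 to E11.5, then -0.20 to E12.5, with SE 0.20 and 0.22. Over the 4 probe sets the 12 changes lay between -0.20 and 0.22, and their pairwise correlations over the arrays ran from -0.56 to 0.51. The manufacturer marks 1435823_x_at and 1451428_x_at as probe sets that can match other transcripts.

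**Figure D2:**
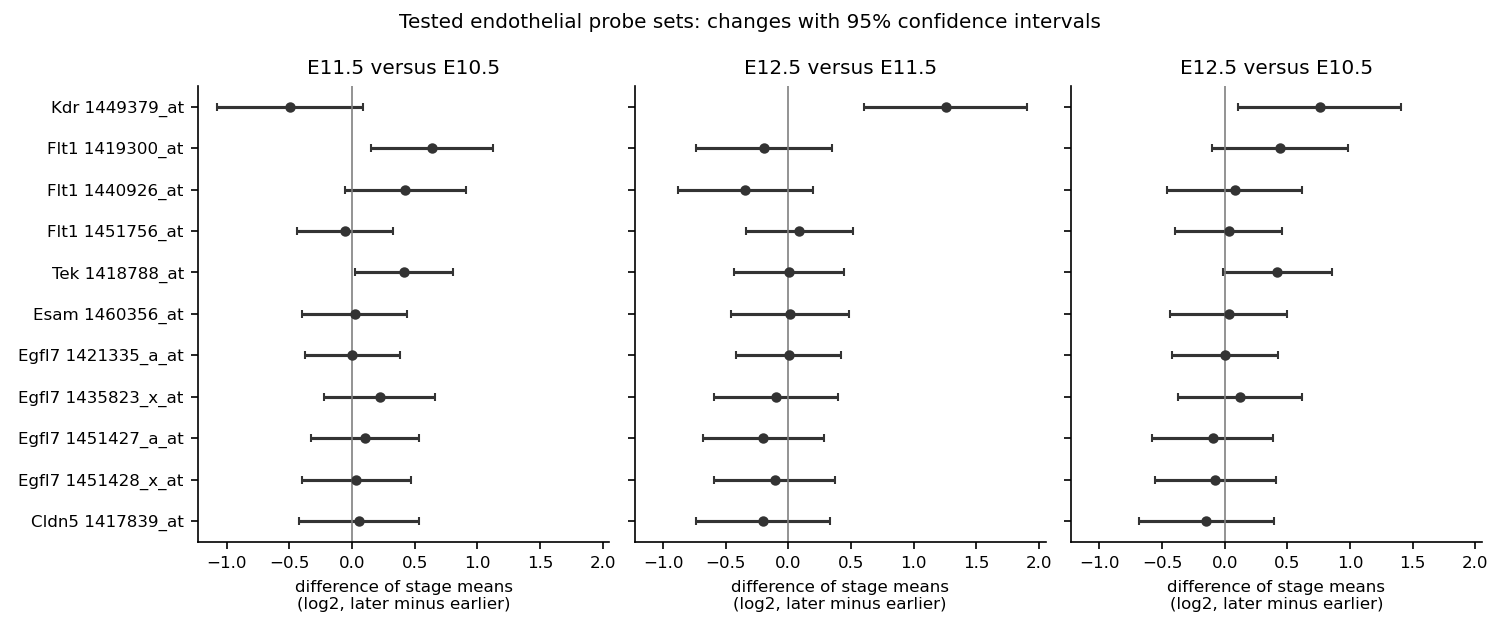
Each row is 1 of the 11 tested endothelial probe sets. Points give the difference of stage means in log2 units, later minus earlier, for the comparison named above each panel, and bars are 95% confidence intervals from limma. The Kdr interval of 0.61 to 1.91 between E11.5 and E12.5 lies farthest from 0, and most others cross it.

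The intervals set how large an unseen change could have been. Of the 33 intervals, 29 lay wholly within a 2-fold difference either way. Leaving out Kdr, the changes ran from -0.34 to 0.64 and the interval bounds from -0.88 to 1.12. Smaller changes were not detectable with these arrays, and values near the lower limit understate any change.

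Few endothelial probe sets had arrays of a pair of stages that did not overlap. From E10.5 to E11.5, 2 of 11 probe sets (1 for Flt1 and that of Tek) had every later array higher, where 3.57% of all tested probe sets did, and 0 of 11 had every later array lower, against 19.3%. Nothing is read from the count of 2, since Tek passed the filter only through the later stages. From E11.5 to E12.5, 1 of 11 was higher throughout, that of Kdr, against 29.6%, and 1 lower, that of Cldn5, against 14.1%. From E10.5 to E12.5, 3 of 11 were higher throughout (Kdr, 1 for Flt1 and Tek), against 19.3%, and 0 lower, against 25.7%. Nothing is read from the count of 3 either, since it includes Tek.

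On the probe sets of highest signal, the tested genes did not rise and fall together. With 1 probe set per gene, that of the highest mean signal, the 15 pairs of 6 genes had a median Pearson correlation of -0.07 over the 8 arrays, from -0.57 for Flt1 with Esam to 0.50 for Flt1 with Egfl7, and 6 pairs were positive. With stage means removed, 7 were positive and the median was -0.05. The Flt1 probe set used, 1451756_at, correlated with 1419300_at at -0.45 and with 1440926_at at 0.003. Pairs with Flt1 could therefore differ on those probe sets. Kdr correlated with the other 5 genes at -0.53 to 0.28. These points share stage and array-wide differences and describe these arrays alone. Ypel3, Ech1, Hdac7, Hacl1 and Pik3ap1 were the 5 of 13044 other genes most like the mean standardised profile of the 6, with correlations of 0.87 to 0.89 over 8 arrays.

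Of the ligands and co-receptors of the same pathways, 3 of 11 tested genes were called, all between E10.5 and E12.5. Of all 13050 tested genes, 455 were called higher and 232 lower between these stages. From E10.5 to E11.5 it was 20 and 3, and from E11.5 to E12.5 it was 233 and 31. The counts of this list and of those below stand beside these, and no conclusion is drawn from them. Pgf, placental growth factor, a ligand of Flt1, fell from 5.95, 5.89 and 5.89 at E10.5 to 4.96 and 4.55 at E12.5, a change of -1.16 (SE 0.24, 2.23-fold lower, adjusted p = 0.0205). Its E11.5 arrays, at 4.98, 5.33 and 5.58, lay below the E10.5 arrays and above those of E12.5. Vegfb, another Flt1 ligand, fell from 7.04, 6.91 and 7.0 to 6.25 and 5.64, a change of -1.04 (SE 0.26, adjusted p = 0.0456). Nrp1, neuropilin 1, a co-receptor for VEGF and for semaphorins that neurons also carry, rose from 6.32, 6.39 and 4.75 to 7.31 and 8.77, a change of 2.22 (SE 0.51, adjusted p = 0.034), and was called on 2 of its 4 probe sets.

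These calls rested on few arrays. Without E12.5 B the adjusted p was 0.358 for Pgf, 0.574 for Vegfb and 0.463 for Nrp1, whose change was then 1.49. Of 8 fits that each left out 1 array, Pgf was called in 6 and also lost without E12.5 A. Nrp1 was called in 4 of them and also lost without E10.5 C, E11.5 A or E11.5 B. Vegfb was called in 1, that without E11.5 A. Nrp1 was also no longer called after quantile normalization (adjusted p = 0.0502).

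Vegfa, the main VEGF ligand of Kdr, read 4.8, 6.51 and 5.48 at E10.5, 6.23, 6.30 and 6.50 at E11.5, and 6.82 and 7.16 at E12.5. Both E12.5 arrays were above all others, but the change from E10.5 of 1.39 (SE 0.40, adjusted p = 0.0679) did not pass. Angpt1, the activating ligand of Tek, read 3.82, 3.75 and 4.02 at E10.5, 4.44, 4.47 and 4.68 at E11.5, and 4.24 and 4.15 at E12.5, without overlap between stages. Its change of 0.67 to E11.5 (SE 0.15, adjusted p = 0.137) did not pass either, and its E10.5 mean of 3.87 was below the filter limit. Angpt2, which can oppose Angpt1 at Tek, changed by -0.59 (SE 0.20, adjusted p = 0.118) from E10.5 to E12.5. The list's median changes were 0.03, -0.07 and 0.04, beside -0.22, 0.11 and -0.10 for all 13050 tested genes.

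**Figure D3:**
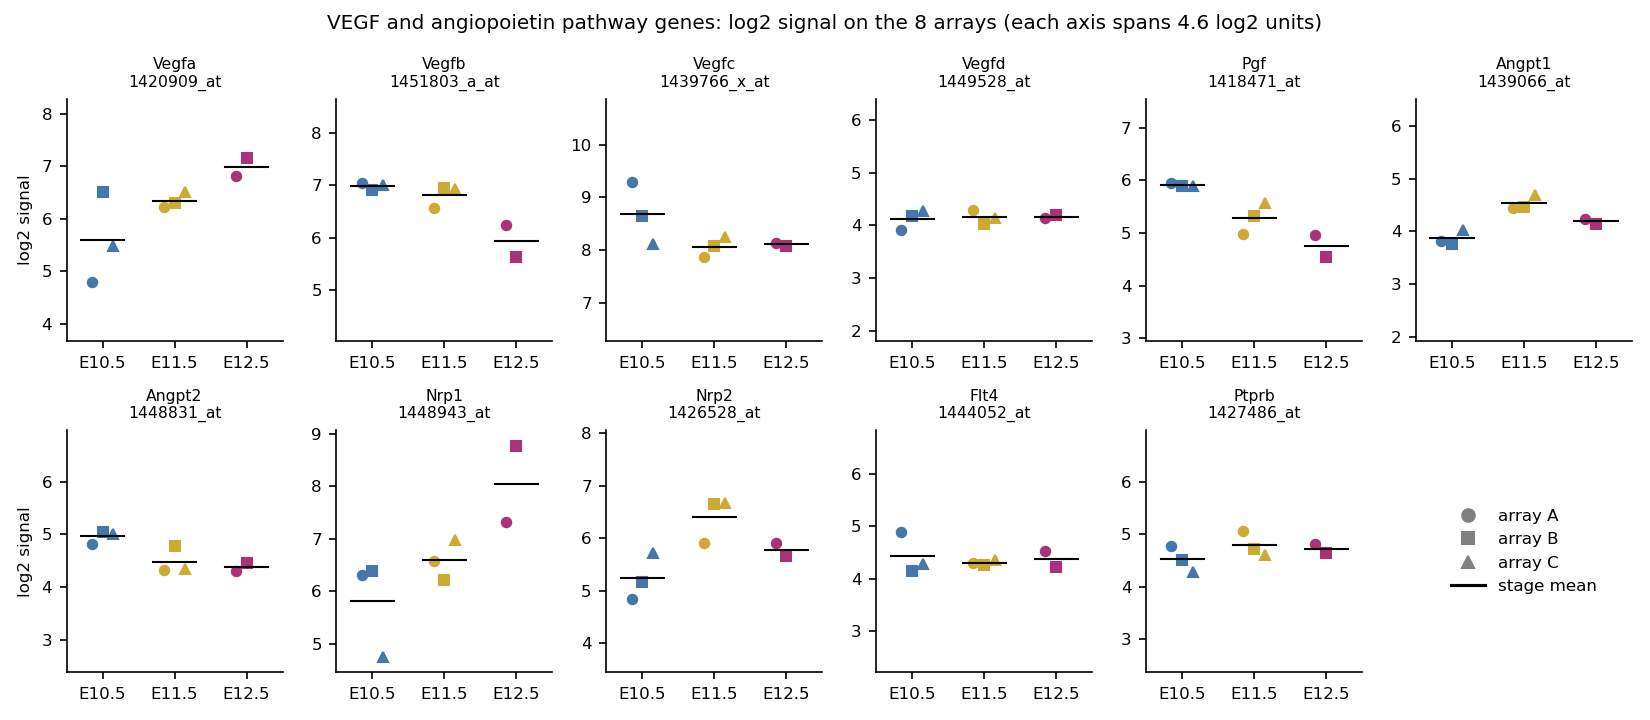
Panels show the 11 tested genes of the VEGF and angiopoietin list, 1 probe set each, with log2 signal on the vertical axis (axes of equal span, different position) and stage on the horizontal axis. Points are single arrays and bars are stage means. Pgf and Vegfb are lower on both E12.5 arrays than on the E10.5 arrays, and Nrp1 is higher, at 7.31 and 8.77.

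Among 17 endothelial transcription factors 12 were tested, and Erg, Fli1, Etv2, Sox7 and Sox18 were left out as low. Nr2f2, a nuclear receptor of venous identity that is also expressed widely in the eye and its mesenchyme, was the single gene of the list that was called. It fell from 8.79, 9.16 and 8.40 at E10.5 and 7.88, 7.88 and 8.02 at E11.5 to 6.54 and 5.97 at E12.5. The change from E11.5 was -1.67 (SE 0.30, adjusted p = 0.0155), called on 2 of its 6 probe sets and no longer called without E11.5 A, E11.5 B or E12.5 B (0.0601, 0.0736 and 0.459). The change from E10.5, -2.53 (SE 0.30, adjusted p = 0.000748), was called in all 18 alternatives and on all 6 probe sets. Between E10.5 and E11.5 Nr2f2 was called on 1 of its 6 probe sets, not on that of the highest signal. Klf4 was called on 1 of 2 probe sets between E10.5 and E12.5, not on that of the higher signal. The other factors were not called, and the list's median changes were 0.08, -0.09 and -0.13.

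Of 25 other endothelial genes, 14 were tested and 0 were called on the probe set of highest signal in any comparison. Those left out as low included Cd34, Icam2, Robo4, Clec14a and Vwf. At an adjusted p of 0.0675, S1pr1, a receptor for the lipid sphingosine 1-phosphate, was 0.81 higher (SE 0.23) at E12.5 than at E10.5. Adgrf5, an adhesion-type receptor, was 0.64 higher (SE 0.23, adjusted p = 0.141). Tspan18 was called on the other of its 2 probe sets. The median changes of this list were 0.13, -0.13 and -0.03.

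Genes of the Notch and BMP branch, which shapes arteries and sprouting but is also active in retinal progenitors, gave 3 called genes of 11 tested. All 3 were called higher at E12.5 than at E11.5, as were 233 of all 13050 tested genes. From E11.5 to E12.5 Hey1, a Notch target, rose by 2.22 (SE 0.44, adjusted p = 0.0287), Notch1 by 1.76 (SE 0.30, adjusted p = 0.0122) and Nrarp, a Notch feedback gene, by 1.81 (SE 0.31, adjusted p = 0.0139). Without E12.5 B the change in Hey1 was 1.32 and the adjusted p of the 3 genes was 0.462, 0.319 and 0.32, and without E11.5 A or E11.5 B each was above the threshold as well. Hey1 was also not called without E10.5 B (0.0562) or after quantile normalization (0.0635). From E10.5 to E12.5 Hey1 and Notch1 were called too, by 2.81 and 1.30. Without E12.5 B these were no longer called (0.0561 and 0.463), and Notch1 was also lost without E10.5 B, E10.5 C, E11.5 B or E12.5 A. Dll4, the endothelial Notch ligand, was left out as low. Of 16 genes of the brain and retinal barrier, 10 were tested and 0 called, with the smallest p for Fzd4, a Norrin receptor, at -1.29 (SE 0.33, adjusted p = 0.0838) from E11.5 to E12.5. Next was Reck, a cofactor of Wnt7 signalling, at 1.34 (SE 0.40, adjusted p = 0.0804) from E10.5 to E12.5. These genes are expressed by neuroepithelium as well as vessels.

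Mural cells wrap vessels, and 9 of 15 of their markers were tested with 0 called. Acta2, smooth muscle actin, read 4.39, 4.89 and 4.92 at E10.5, 5.81, 6.89 and 6.46 at E11.5, and 5.42 and 5.10 at E12.5. Its E11.5 arrays were above all others, and the change of 1.66 (SE 0.28, adjusted p = 0.0517) did not pass. Pdgfrb, the platelet-derived growth factor receptor of pericytes, which mesenchyme also carries, was 0.95 higher at E11.5 than at E10.5 (SE 0.25, adjusted p = 0.15). From E11.5 to E12.5 its change was -1.21 (SE 0.28, adjusted p = 0.0575).

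Cells carried in blood vessels were read beside these genes. Of 9 tested erythroid markers, Hbb-bh1, an embryonic beta-like globin, was called. It read 11.42, 11.44 and 10.90 at E10.5, 10.95, 10.83 and 11.79 at E11.5, and 8.96 and 7.29 at E12.5, a change of -3.06 from E11.5 (SE 0.48, adjusted p = 0.00755) that was not called without E12.5 B (0.219). Its change from E10.5 to E12.5 was -3.12 (adjusted p = 0.00424), again not called without E12.5 B (0.106). The summed log2 level of the erythroid list overlapped between stages, at 14.2 to 14.6, 13.4 to 14.6 and 14.2 to 14.3. Of 8 tested platelet and blood progenitor genes Myb, a factor of blood progenitors and other dividing cells, rose by 2.76 from E11.5 to E12.5 (SE 0.41, adjusted p = 0.00497, or 0.0868 without E12.5 B). Its change from E10.5 to E12.5 was 3.08 (SE 0.41, adjusted p = 0.00161), called in all 18 alternatives. Of 11 tested macrophage genes 0 were called.

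Lists of the surrounding tissue moved more than the endothelial genes in single members. In the optic fissure and cup list Ntn1, the guidance and adhesion factor netrin 1, fell by 2.47 from E11.5 to E12.5 on the log2 scale (SE 0.30, adjusted p = 0.00158, or 0.0524 without E12.5 B). From E10.5 to E12.5 its change was -4.04 (SE 0.30, adjusted p = 3.57e-05), called in all 18 alternatives. Of 11 tested markers of the periocular mesenchyme, 3 rose from E10.5 to E11.5 (Ogn, Postn and Dcn), with a list median of 1.41. Ogn was lost without E11.5 B (0.0541), Dcn was called in 2 of 8 fits that left out 1 array (those without E10.5 B or E11.5 A), and Postn in 3 (those without E11.5 A, E12.5 A or E12.5 B). From E10.5 to E12.5 Ogn rose by 5.48 and Dcn by 2.15 (adjusted p = 0.000103 and 0.000783), both called in all 18 alternatives. Ogn read 3.09 to 3.11 at E10.5 and passed the filter only through later stages, so its changes from E10.5 are given as a description. Lum, another of the 11, passed in the same way (E10.5 mean 3.26), and both enter the list median and the summed level. The summed level of that list was 8.58 to 9.09 at E10.5 and 9.97 to 10.9 at E11.5. Flt1 probe set 1419300_at and Tek also had every E11.5 array above the E10.5 arrays, and the part of mesenchyme in those values was not tested. Of 7 tested lens markers only 1 was called, Cryab, a small heat shock protein. It rose by 3.89 from E10.5 to E11.5 (SE 0.36, adjusted p = 0.00159), and by 4.10 from E10.5 to E12.5 (adjusted p = 0.000213), the latter called in all 18 alternatives. The lens list's median changes were -0.075 and -0.083 in these comparisons. Its summed log2 level, which includes Cryab, was 7.27 to 7.60 at E10.5, 8.87 to 9.16 at E11.5 and 8.62 to 8.95 at E12.5. Prox1 of this list changed by 2.38 from E10.5 to E11.5 (SE 0.68, adjusted p = 0.159 in limma) and was not called. Of the hypoxia response list Egln3, an oxygen sensor, fell by 1.32 on the log2 scale from E10.5 to E12.5 (SE 0.29, adjusted p = 0.0268). It was lost without E11.5 B (0.0536) or E12.5 B, where its change was -0.88. Some genes were called only on probe sets other than that of the highest signal. Ndrg1 was so on 1 of 4 between E11.5 and E12.5 and on 2 between E10.5 and E12.5. Vax1 and Col1a2 were so on 1 of 2 each between E10.5 and E12.5.

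**Figure D4:**
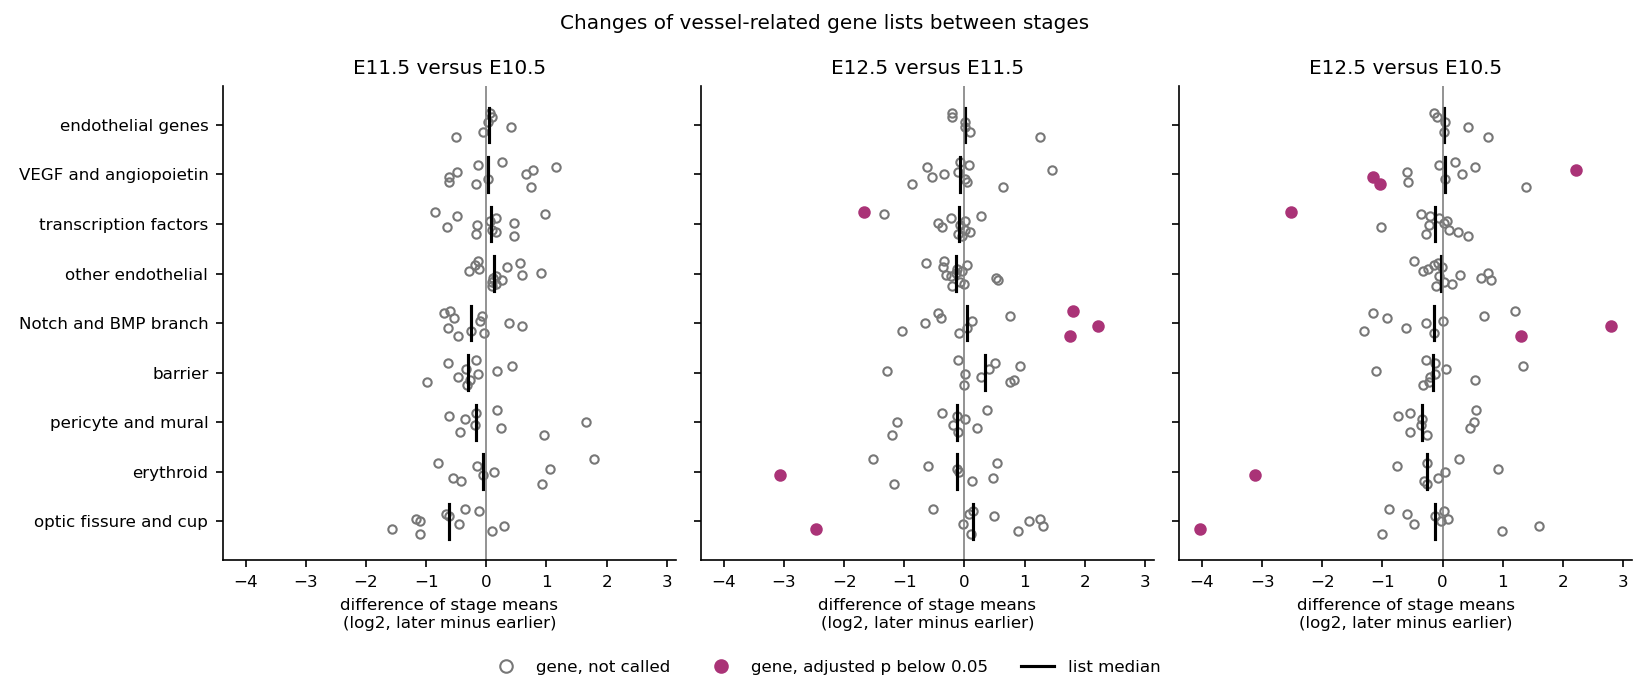
Rows are gene lists, and each point is 1 tested gene on its probe set of highest signal. The horizontal axis gives the difference of stage means in log2 units, later minus earlier. Filled points passed an adjusted p below 0.05 and the black bar is the list median. No filled point stands in the endothelial row, whose medians over the 6 genes are 0.04, 0.01 and 0.03.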

How the data were processed

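RNA of laser-captured optic fissure was amplified by repeated in vitro transcription, which favours 3 prime ends, and hybridised to 8 arrays, per the labels' protocols. The table deposited by the authors holds log2 values for 45101 probe sets. The submitters' processing notes list GCOS 1.4. Summarization, background and normalization are not given in the sources used here, and no detection calls were used.

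The 64 control probe sets and the lowest 40% by mean log2 signal (below 3.94) were left out, which kept 27022. The platform annotation of 2016 gave 1 symbol to 34945 probe sets, several to 932 and none to 9160. Names were checked against RefSeq gene identifiers (34741 matched). A single linear model of stage over all arrays (5 residual degrees of freedom) was used in limma 3.58.1 (R 4.3.3), and its empirical Bayes step followed a trend on mean signal. P-values are two-sided and adjusted by Benjamini-Hochberg over all kept probe sets. The fit was tested on simulated data. Alternatives were quantile normalization, median centring, pseudocounts of 1 and 64, other filters, no trend, only the stages compared, a replicate block, and leaving out single arrays. Lists give 1 probe set per gene, that of the highest mean. Named were all 10 members, the called genes of each other list or, where none, those with the smallest p, and the 5 genes of most similar profile. Members and lists were chosen with earlier results of these data known. Genes listed but named by no probe set here were not analysed.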

Additional observations from a re-analysis of the deposited data

How the results depend on the processing

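The count of endothelial probe sets called stayed at 0 in every alternative between E10.5 and E11.5 and between E10.5 and E12.5. Between E11.5 and E12.5 it was 1, that of Kdr, when only the arrays of these stages were fitted, and 0 to 1 when single arrays were left out. The count over all probe sets between E10.5 and E11.5 (34) was 0 with a pseudocount of 64, 6 without a trend, 5 with the replicate block, 15 with the stages compared alone, 5 to 54 without single arrays, and 97 without E10.5 C and E11.5 A together, an alternative added after seeing the data. Between E11.5 and E12.5 (492) it was 280 with the replicate block and 78 to 907 without single arrays. Between E10.5 and E12.5 (1255) it was 531 with the block, 514 with the stages compared alone and 169 to 1623 without single arrays. The letters are not said to pair arrays, and deviations of same-letter arrays from their stage means correlated at -0.39 to 0.13, so the block was kept as an alternative. Kdr had the same sign in all 18 alternatives of each comparison, and its change from E11.5 to E12.5 ran from 0.77 to 1.43. Of 190 recomputed member changes per comparison 15, 18 and 15 had the other sign, all of probe sets with a change of at most 0.15 in size. No detection calls were used, so signal over background limits what can be said of Pecam1, Cdh5, Tie1 and Emcn.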

Other observations

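Several vessel-related genes outside the endothelial set read highest at E11.5 without passing the test, and they were picked after their values were seen. Plvap, a protein of the diaphragms of endothelial openings, read 6.05, 6.01 and 6.05 at E10.5, 6.86, 6.33 and 6.6 at E11.5, and 6.21 and 5.72 at E12.5. Its E11.5 arrays were above all others, with changes of 0.56 (SE 0.22, adjusted p = 0.215 in limma) and -0.63 (SE 0.25, adjusted p = 0.239). Hemgn, a nuclear factor of blood-forming cells, changed by 1.80 and then -1.52 (adjusted p = 0.0823 and 0.0742), and the embryonic globin Hba-x by 0.92 and then -1.17 (adjusted p = 0.154 and 0.0664). The erythroid list did not share this course, with median changes of -0.06 and -0.13. Its members Tfrc (-0.80 and then 0.55) and Hbb-y (-0.55 and then 0.48) went the other way. Nrp2, a co-receptor for Vegfc, was 1.16 higher at E11.5 than at E10.5 (SE 0.28, adjusted p = 0.143).

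The genes whose signal followed Kdr most closely over the 8 arrays, a comparison added after seeing the data, were 1500015A07Rik, Zfhx4, Ranbp6, Nuak1 and Trpc2, with Pearson correlations of 0.97 to 0.99 among 13044 genes.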
